A study of Mus musculus with 21 samples.

Results

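Tbx1, Tbx2, Tbx3 and Tbx22 are 4 T-box transcription factor genes of the 18193 genes measured on Affymetrix mouse arrays along the presomitic mesoderm (PSM), the paired strip of unsegmented mesoderm beside the caudal neural tube that is cut into somites. They were taken by gene symbol, with the probe set of highest mean signal standing for each gene, and together they had 8 probe sets. The array carried 15 T-box genes in all, a count that leaves out T, which was not analysed here. PSM from CD-1 mouse embryos, an outbred stock with no genetic modification named in the labels, was divided into 7 parts, and each part was measured on 3 arrays, 21 in all. The stage label gives embryonic day 8.5 and the dissection protocol 9.0 days post-coitus, while the design text names a wider range of stages. All arrays shared the same handling: pancreatin at 2 mg/ml for 1 min, removal of ectoderm, endoderm and lateral plate with needles, Trizol extraction and 2 cycles of amplification. Left and right PSM came from the same embryo and another set from another embryo, so that some arrays share an embryo. Which arrays these are, and at which end part 1 lies, the labels do not state. The p-values therefore measure only the spread between these arrays.

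T-box factors bind DNA through a conserved domain and act as activators or repressors depending on the member. Tbx2 and Tbx3 are close relatives that act mainly as repressors in the heart, limb and other organs, and BMP signalling is a known inducer of Tbx2 in the mouse heart. Tbx1 is needed for the pharyngeal arches and the outflow tract of the heart and is the main gene of DiGeorge syndrome. Tbx22 is an X-linked repressor whose loss causes cleft palate in humans.

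In these arrays the 4 genes ran in opposite directions. Tbx22 and Tbx2 were highest in part 7, and Tbx3 and Tbx1 were highest in parts 2 and 3. Signals are given on the linear MAS5 scale, on which the median of all table values was 13.3, and log2 values are log2(signal + 16), on which a signal of 0 becomes 4. Most values of these genes were low on this scale. Tbx22 reached the table median in 6 arrays, Tbx1 and Tbx3 in 10 arrays each and Tbx2 in 16. In pieces of whole tissue, fewer cells of a type and less RNA per cell cannot be told apart.

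**Figure D1:**
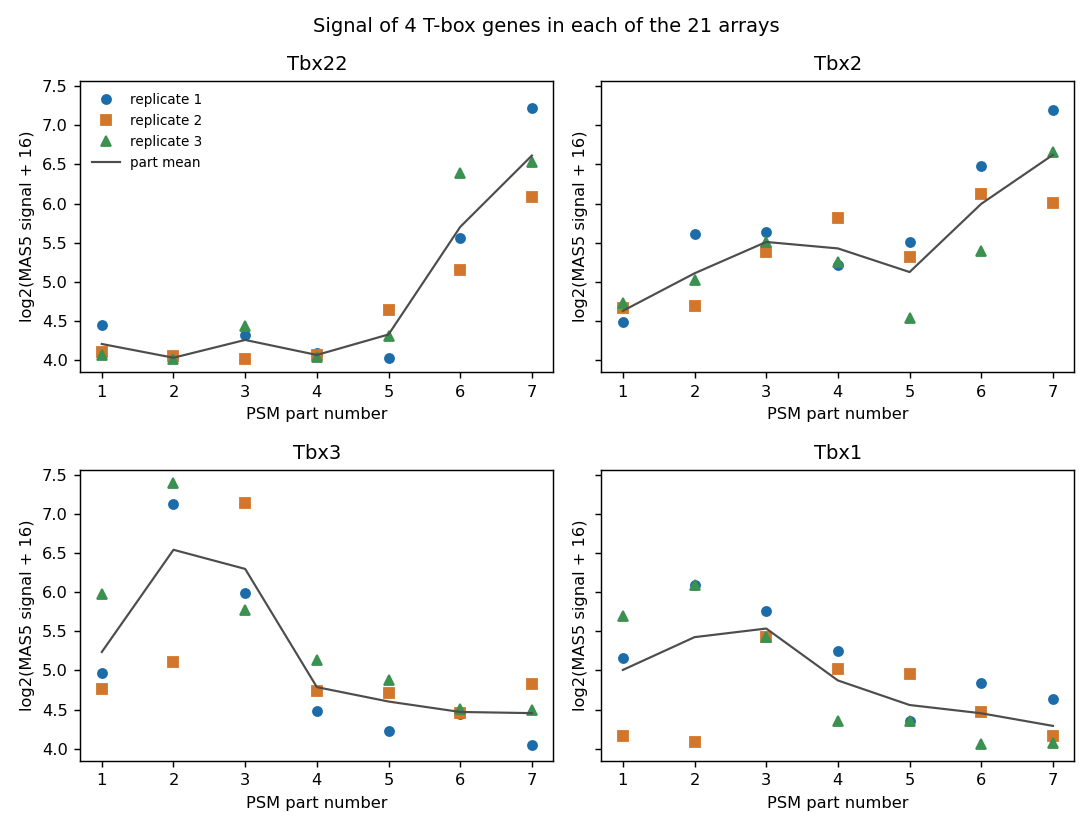
log2(MAS5 signal + 16) of Tbx22, Tbx2, Tbx3 and Tbx1 (vertical axes) in each array against PSM part number (horizontal axes), with 1 symbol per replicate number and a line through the part means. Tbx22 stays near the floor of 4 in parts 1 to 5 and lies above 5 in all 6 arrays of parts 6 and 7. Tbx3 and Tbx1 have their highest arrays in part 2, where replicate 2 lies far below the other arrays.

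The genes lie on different chromosomes. In the RefSeq annotation of mouse build GRCm38.p6 Tbx22 spans 107667964 to 107688980 on chromosome X, Tbx2 85832615 to 85841948 on chromosome 11, Tbx3 119670534 to 119684724 on chromosome 5 and Tbx1 18580979 to 18590671 on chromosome 16. The RefSeq promoter table of that build held entries for Tbx22 and Tbx1, which moved in opposite directions, and none for Tbx2 and Tbx3. The 250 bases before the outermost start of each are shown because they differ in CG dinucleotides and in a motif match. They lie at chrX:107667714-107667963 on the plus strand for Tbx22 and at chr16:18590672-18590921 on the minus strand for Tbx1. Capitals mark the letters AGGTGT, the core of the site that T-box proteins bind.
Tbx22: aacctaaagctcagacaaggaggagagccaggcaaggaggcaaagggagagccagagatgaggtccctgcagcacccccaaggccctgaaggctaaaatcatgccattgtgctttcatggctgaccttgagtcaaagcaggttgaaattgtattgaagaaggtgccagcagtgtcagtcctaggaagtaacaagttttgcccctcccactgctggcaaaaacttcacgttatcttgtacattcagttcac
Tbx1: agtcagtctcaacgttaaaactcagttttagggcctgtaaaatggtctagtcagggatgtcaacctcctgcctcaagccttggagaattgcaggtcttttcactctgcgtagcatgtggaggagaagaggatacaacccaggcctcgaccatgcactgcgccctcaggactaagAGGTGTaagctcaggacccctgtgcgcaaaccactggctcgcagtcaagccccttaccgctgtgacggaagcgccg
The Tbx22 window held 1 CG dinucleotide and 49.6% G or C. The Tbx1 window held 10 CG dinucleotides and 54.4% G or C. The median over 32851 promoter windows of the same length was 6 CG dinucleotides, with quartiles of 2 and 16, and 52.4% G or C. AGGTGT was searched on both strands, as was the longer form AGGTGTGA that contains it. The short form had 1 match in the Tbx1 window and 0 in the Tbx22 window, and occurred in 11.8% of all windows. The longer form occurred in neither window and in 1.12% of all windows. Of the further starts in the table, 1 of Tbx1 and 2 of Tbx22, none held either form. These matches describe letters and are not shown to be binding sites.

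Tbx22 was low in parts 1 to 5 and high in parts 6 and 7. Its signal over replicates 1, 2 and 3 was 5.81, 1.13 and 0.805 in part 1, 0.310, 0.516 and 0.169 in part 2, and 3.96, 0.209 and 5.60 in part 3. It was 1.02, 0.757 and 0.438 in part 4 and 0.283, 8.96 and 3.87 in part 5. It was 31.2, 19.6 and 67.7 in part 6 and 132.9, 51.9 and 76.7 in part 7. All 15 arrays of parts 1 to 5 were below the table median and all 6 arrays of parts 6 and 7 above it, with no overlap.

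The slope of Tbx22 was 0.38 ± 0.06 log2 units per part (SE; limma, adjusted p = 0.000125), with 0.40, 0.31 and 0.43 within replicate numbers 1, 2 and 3. Of the 12143 genes tested, 19.2% had a called slope, 8.09% rising and 11.1% falling. Its log2 level was 6.61 ± 0.57 in part 7 and 4.21 ± 0.21 in part 1 (SD, n = 3 each), a difference of 2.41 ± 0.27 on this scale (SE; limma, adjusted p = 4.61e-06). Since the signal in part 1 was under the table median, the size depends on the pseudocount: the difference was 4.79 with a pseudocount of 1 and 1.15 with 64, and was called with both. In the comparison of part 7 with part 1, 13.4% of genes were called and 6.1% were higher in part 7. Tbx22 entered the test only through parts 6 and 7, since a gene had to reach the table median in 3 arrays, so it had to differ. With no such filter the adjusted p was 0.000193 for its slope and 6.96e-06 between parts 7 and 1 (limma).

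The change of Tbx22 was placed between parts 5 and 6. Part 6 stood at 5.70 ± 0.63 and part 5 at 4.33 ± 0.31 (SD, n = 3 each), a difference of 1.37 ± 0.27 (SE; limma, adjusted p = 0.0203, and 0.0287 with no filter on low values). The difference was 3.17 with a pseudocount of 1 and 0.57 with 64, and was called with neither (limma, adjusted p = 0.115 and 0.104). Only 46 genes, 0.379% of those tested, were called higher at this step. The call was lost under 10 of 34 alternatives, with an adjusted p of 0.00617 to 0.423 over them all (limma). It was also lost without replicate 1 (0.423), replicate 2 (0.0830) or replicate 3 (0.348). The same held without any 1 of part 5 replicate 1 (0.105), part 5 replicate 2 (0.0533), part 5 replicate 3 (0.0754), part 6 replicate 1 (0.0676) or part 6 replicate 3 (0.126). The direction held each time.

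Part 7 of Tbx22 was above part 6 by 0.91 ± 0.27 log2 units (SE; limma, adjusted p = 0.718, unadjusted 0.00359), and 0 genes were called at that last step, where 578 had an unadjusted p under 0.05. The number of genes called at that step, 0 with all arrays, was 61 without part 7 replicate 2 alone and 16 without replicate 2. In the order of the part means of Tbx22, parts 7, 6, 5, 3, 1, 4 and 2, part 6 and part 5 were the only neighbours whose mean ± SD intervals did not overlap. The mean of parts 3, 4 and 5 was 0.92 ± 0.15 log2 units (SE) below that of parts 1, 2, 6 and 7 (limma, adjusted p = 0.000996, and 0.00141 with no filter), a contrast in which 1.6% of genes were called lower. Without replicate 1 its adjusted p was 0.0846. The log2 part means were 4.06 to 4.33 in parts 3 to 5 and 4.21 and 4.03 in parts 1 and 2, so the high side of this contrast was parts 6 and 7.

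Tbx2 was low in part 1, intermediate in parts 2 to 5 and highest in part 7. Its signal over replicates 1, 2 and 3 was 6.45, 9.42 and 10.5 in part 1, 32.7, 9.91 and 16.5 in part 2, and 33.8, 25.8 and 29.3 in part 3. It was 21.02, 40.2 and 22.2 in part 4 and 29.5, 24.0 and 7.30 in part 5. It was 73.3, 53.4 and 25.9 in part 6 and 131.1, 48.5 and 84.7 in part 7. The 3 arrays of part 7 were all above the 3 of part 1, whereas part 6 replicate 3 lay within the range of part 5.

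The slope of Tbx2 was 0.26 ± 0.05 per part (SE; limma, adjusted p = 0.000337), with 0.35, 0.24 and 0.20 within the 3 replicate numbers. Its log2 level was 6.62 ± 0.59 in part 7 and 4.63 ± 0.12 in part 1 (SD, n = 3 each), a difference of 1.99 ± 0.32 on this scale (SE; limma, adjusted p = 0.000218), which ran from 1.03 to 3.097 over the alternatives with the signal in part 1 under the table median. Both calls held under every alternative run. At the step to part 6, which was called for Tbx22, Tbx2 differed by 0.87 ± 0.32 (SE; limma, adjusted p = 0.459, unadjusted 0.0131). Part 6 of Tbx2 stood at 6.00 ± 0.56 and part 5 at 5.12 ± 0.51 (SD, n = 3 each). In the order 7, 6, 3, 4, 5, 2 and 1 the mean ± SD interval of each part overlapped that of the next. Relative to their own highest part, part 7, Tbx2 stood at 57.8% of the linear mean in part 6 and at 31.6% in part 4. Tbx22 stood at 45.3% of its part 7 mean in part 6, and in part 4 it was below the table median in all 3 arrays.

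Tbx3 was highest in parts 2 and 3 and low from part 4 on. Its signal over replicates 1, 2 and 3 was 15.2, 11.2 and 47.2 in part 1, 123.7, 18.4 and 152.4 in part 2, and 47.5, 124.7 and 38.5 in part 3. It was 6.33, 10.8 and 19.2 in part 4 and 2.69, 10.2 and 13.3 in part 5. It was 5.74, 5.95 and 6.81 in part 6 and 0.490, 12.4 and 6.51 in part 7. In parts 2 and 3 the replicates were split. Replicates 1 and 3 peaked in part 2 and replicate 2 in part 3.

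The part means of Tbx3 differed by the F test (limma, adjusted p = 0.00599; 13.4% of genes passed it). Its slope was -0.29 ± 0.08 per part (SE; limma, adjusted p = 0.0113), with -0.35, -0.13 and -0.40 within the 3 replicate numbers. Between the ends no difference passed the test: part 7 stood at 4.46 ± 0.39 and part 1 at 5.24 ± 0.65 (SD, n = 3 each), a difference of -0.78 ± 0.46 (SE; limma, adjusted p = 0.301). The log2 level was 6.54 ± 1.25 in part 2 and 6.30 ± 0.73 in part 3 (SD, n = 3 each). No neighbouring step was called. Part 2 was above part 1 by 1.31 ± 0.46 (SE; limma, adjusted p = 0.240), and part 4 differed from part 3 by -1.51 ± 0.46 (SE; limma, adjusted p = 0.625). Single arrays and replicate numbers decided several of these values. Without part 2 replicate 2 the step to part 2 became 2.02 and was called (limma, adjusted p = 0.0158). The slope lost its call without replicate 1 (0.0951) or replicate 3 (0.124), and the F test without replicate 1 (0.385). In the order 2, 3, 1, 4, 5, 6 and 7 each part overlapped the next.

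Tbx3 had 5 probe sets, which allows a check within the gene. Probe set 1445757_at followed the main one, 1448029_at, over the 21 arrays (Pearson r = 0.951), with its highest signal of 36.1 in part 2 replicate 1. Its part means differed by the F test (limma over all filtered probe sets, adjusted p = 0.00538), and its slope of -0.13 ± 0.05 (SE) missed the threshold (adjusted p = 0.0593). Probe set 1437479_x_at, whose suffix marks probes that may match other transcripts, had an r of 0.867, a highest signal of 46.8 in part 2 replicate 3 and a slope of -0.12 ± 0.05 (SE; limma, adjusted p = 0.0876). The part means of 1437479_x_at did not pass the F test (limma over all filtered probe sets, adjusted p = 0.328). The other two, 1439567_at and 1444594_at, never reached the table median. Their highest signals were 9.83 and 5.78, and their r with the main probe set was 0.299 and -0.0804. The probe sets share the arrays and the RNA, so that these correlations describe the probes and not independent samples.

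**Figure D2:**
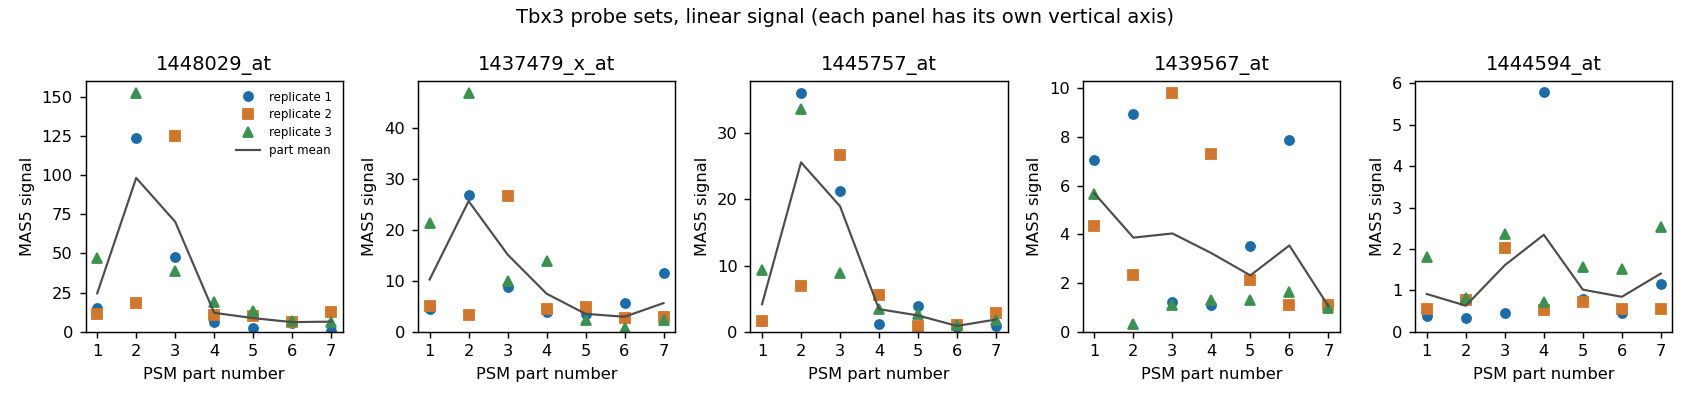
Linear MAS5 signal (vertical axes, each panel with its own range) of the 5 Tbx3 probe sets against PSM part number, with 1 symbol per replicate number and a line through the part means. The first 3 panels have their highest arrays in parts 2 and 3, up to 152.4 in the first, and the last 2 panels stay under 10.

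Tbx1 had the smallest slope of the 4 genes and the least stable one. Its signal over replicates 1, 2 and 3 was 19.7, 1.90 and 36.0 in part 1, 52.4, 1.05 and 52.1 in part 2, and 38.2, 26.9 and 26.9 in part 3. It was 22.0, 16.5 and 4.38 in part 4 and 4.52, 15.1 and 4.53 in part 5. It was 12.6, 6.08 and 0.661 in part 6 and 8.93, 1.98 and 0.772 in part 7. Replicate 2 was near 0 in parts 1 and 2, where replicates 1 and 3 were high, and all 6 arrays of parts 6 and 7 were below the table median.

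The slope of Tbx1 was -0.18 ± 0.06 per part (SE; limma, adjusted p = 0.0318). It was -0.20 and -0.36 within replicate numbers 1 and 3 and 0.01 within replicate number 2. The call was lost with a pseudocount of 1 (limma, adjusted p = 0.0735), without replicate 1 (0.148) or replicate 3 (0.427), and without any 1 of part 1 replicate 3 (0.0690), part 2 replicate 1 (0.0575), part 2 replicate 3 (0.0602), part 6 replicate 3 (0.0555), part 7 replicate 2 (0.0620) or part 7 replicate 3 (0.0638). The F test did not call Tbx1 (limma, adjusted p = 0.249), but did without replicate 2 (0.0320) or without part 2 replicate 2 alone (0.0102). Part 7 stood at 4.29 ± 0.31 and part 1 at 5.01 ± 0.78 (SD, n = 3 each), a difference of -0.72 ± 0.44 (SE; limma, adjusted p = 0.317). The highest part mean was 5.54 ± 0.20 in part 3, against 5.43 ± 1.16 in part 2 (SD, n = 3 each). In the order 3, 2, 1, 4, 5, 6 and 7 each part overlapped the next.

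Endothelial markers varied over the arrays in a like way. The labels do not name endothelium among the tissues removed. The summed signal of 7 endothelial marker genes (Kdr, Cdh5, Pecam1, Tek, Tie1, Emcn and Cldn5) over replicates 1, 2 and 3 was 212, 25.7 and 410 in part 1, 445, 20.2 and 835 in part 2, and 459, 375 and 577 in part 3. It was 188, 130 and 405 in part 4 and 174, 129 and 210 in part 5. It was 161, 31.96 and 35.5 in part 6 and 147, 45.0 and 228 in part 7. As with Tbx1, replicate 2 was the lowest of its part in parts 1 and 2 and reached its highest level in part 3.

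Over the 21 arrays the mean log2 level of these markers had a Pearson r of 0.770 with Tbx1 and 0.720 with Tbx3, against -0.139 with Tbx2 and -0.395 with Tbx22 (Spearman rho 0.703, 0.648, -0.151 and -0.432 in the same order of genes). These are descriptions over arrays that share parts and embryos. Within replicate numbers 1, 2 and 3 the r was 0.921, 0.956 and 0.818 for Tbx1 and 0.933, 0.775 and 0.840 for Tbx3, over 7 arrays each. Around the part means it was 0.685 for Tbx1 and 0.663 for Tbx3. Without part 2 replicate 3 and part 3 replicate 3, the arrays farthest from the marker median, it was 0.704 for Tbx1 and 0.622 for Tbx3. None of the 7 markers reached the table median in every array, Pecam1 reached it in 1 array, and of the 6 that could be tested 0 had a called slope (limma; 2 had an unadjusted p under 0.05, and the lowest adjusted p was 0.0851). Of those 6, 2 fell with the replicate number as a block and 1 with it as a random block, 3 without replicate 2, 4 without part 1 replicate 2 alone and 2 without part 2 replicate 2 alone. Endothelium was not the only like list. The mean of 7 cardiac mesoderm markers had an r around the part means of 0.634 with Tbx1 and 0.660 with Tbx3. Over the 21 arrays it was 0.482 and 0.346. Within replicate numbers 1, 2 and 3 it was -0.307, 0.762 and 0.902 for Tbx1 and -0.338, 0.387 and 0.935 for Tbx3. Myh6 and Tbx20, of the cardiac list, never reached the table median. The part of endothelial or cardiac RNA in the levels of Tbx1 and Tbx3 was not tested.

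**Figure D3:**
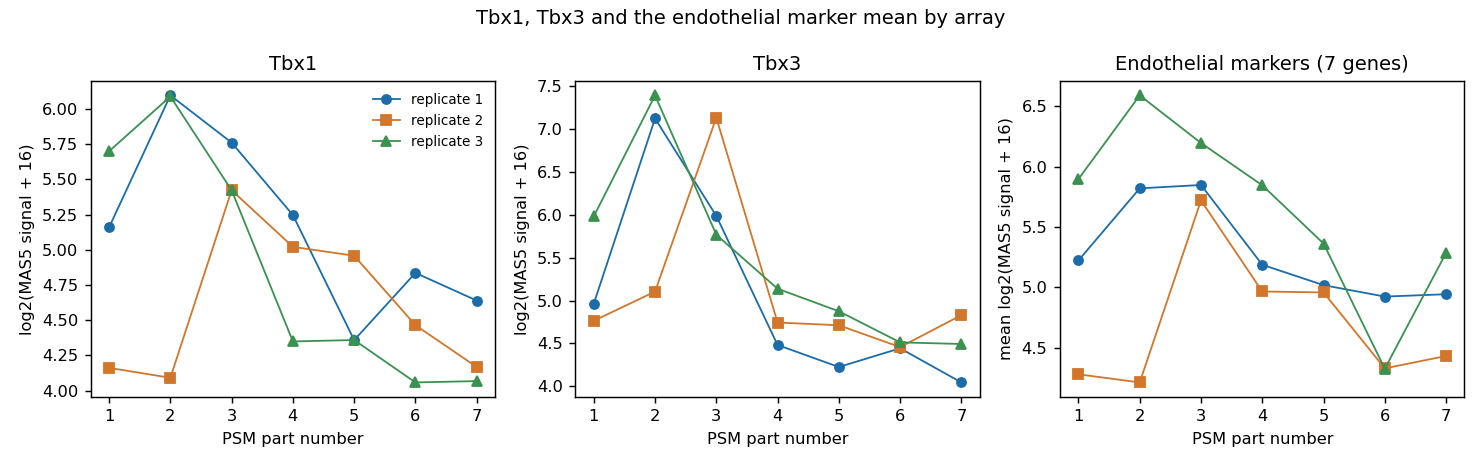
log2(MAS5 signal + 16) of Tbx1, of Tbx3 and of the mean of 7 endothelial marker genes (vertical axes, each with its own range) against PSM part number, with 1 line per replicate number. In all 3 panels replicate 2 is low in parts 1 and 2 and peaks in part 3, whereas replicates 1 and 3 are high in part 2.

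Markers of the tissues removed by the dissection, lateral plate, ectoderm and endoderm, were also uneven. The lateral plate and limb markers' summed signal over 10 genes ran from 52.9 to 570, the highest in part 2 replicate 3, the array in which Tbx3 was also highest, and Hand1, Gata4 and Tbx5 never reached the table median. The r of their mean with Tbx3 was 0.522, and 0.684 around the part means, over 21 arrays. Without part 2 replicate 3 and part 4 replicate 3 it was 0.401. The summed signal of 6 surface ectoderm markers ran from 25.2 to 234 and that of 7 gut and pharyngeal endoderm markers from 46.7 to 359, both highest in part 1 replicate 3. Krt8 and Krt18 stand in both lists. Trp63, of the ectoderm list, never reached the table median. Their mean had an r with Tbx3 of 0.564 for ectoderm and 0.547 for endoderm over 21 arrays, and of 0.408 and 0.514 around the part means. With Tbx1 the r over the 21 arrays was 0.399 for lateral plate, 0.436 for ectoderm and 0.462 for endoderm. Around the part means it was 0.299, 0.141 and 0.249. The part of these tissues in the levels of Tbx1 and Tbx3 was not tested.

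The genes most like each T-box gene were listed by Pearson r over the 21 arrays, all genes tested. For Tbx1 they were Adgrg3 (r = 0.862), Ctla2a (0.851), the VEGF-C receptor gene Flt4 (0.849), Mmrn1 (0.843) and Gm266 (0.841), whose slopes had adjusted p-values of 0.0597 to 0.160 (limma). For Tbx3 they were the homeobox gene Hhex (0.863), the transcriptional repressor gene Prdm1 (0.851), the cation channel gene Trpc6 (0.843), the LIM homeobox gene Lhx6 (0.838) and Egfl7 (0.837), a gene known for its expression in blood vessels. For Tbx2 they were Zcchc3 (0.885), Rubcn (0.876), Galnt16 (0.865), Nr2f6 (0.855) and Rcc2 (0.852). For Tbx22 they were the lipid transporter gene Abca9 (0.932), the forkhead gene Foxd2 (0.930), Traf3ip2 (0.927), Depdc7 (0.924) and Spon1 (0.923), which encodes a secreted matrix protein. Around the part means, the r of these 5 genes with Tbx22 was 0.153 to 0.638. By Spearman rho the likeness was 0.766 to 0.865 for the Tbx1 list and 0.796 to 0.860 for the Tbx2 list. It was 0.487 (Lhx6) to 0.849 (Prdm1) for the Tbx3 list and 0.573 (Spon1) to 0.821 (Depdc7) for the Tbx22 list.

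Among themselves the 4 genes formed 2 like pairs by r over the 21 arrays. Tbx1 and Tbx3 had an r of 0.769 over the 21 arrays and 0.582 around the part means. Tbx2 and Tbx22 had an r of 0.741 over the arrays and 0.0243 around the part means. Both had their highest part means in parts 7 and 6. Tbx22 reached the table median in only 6 arrays, those of parts 6 and 7, and values near the floor have no reliable order. The r around the part means therefore cannot show whether replicates of Tbx2 and Tbx22 deviated alike. In part 7 the replicates of both genes stood in the same order, and in part 6 they did not. The other 4 pairs had an r of -0.502 to -0.148 over the arrays. Around the part means, Tbx1 and Tbx2 had an r of 0.487, near that of Tbx1 and Tbx3. It was 0.0647 for Tbx1 and Tbx22, -0.00829 for Tbx2 and Tbx3, and -0.230 for Tbx3 and Tbx22. Tbx1 and Tbx3 reached the table median in 10 arrays each, so the limit of low values applies to their r as well.

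Position landmarks placed these patterns along the tissue. Of 7 presomitic markers, among them Rspo3, Hes7 and Dll1, 6 fell and 0 rose over the parts, and their summed signal was 528 to 1012 in part 7 and 5889 to 6032 in part 1. All 7 somite markers, among them Meox1 and Uncx, rose, with a summed signal of 8389 to 11171 in part 7 and 352 to 531 in part 1. Tbx22 and Tbx2 were thus highest where somite markers were high, and Tbx3 and Tbx1 in parts where presomitic markers were high. The presomitic markers were high in parts 1 and 4 too, with a summed signal of 4427 to 5229 in part 4. Tbx3 had median signals of 15.2 and 10.8 in those parts, against 123.7 and 47.5 in parts 2 and 3. Around the part means, the r with the presomitic markers was -0.197 for Tbx3 and -0.240 for Tbx1. Whether cell makeup accounts for either pattern was not tested. Mesp2, which marks the next segment boundary, had its highest mean in part 4, and Ripply2, which ends the Mesp2 signal, in part 5. The Mesp2 mean of 572 in part 4 rested largely on replicate 3, with a signal of 1439, and its mean in part 5 was 355. Tbx3 was below the table median in 2 of the 3 arrays of part 4. Tbx22 was still below it in all 3 arrays of part 5, where Meox1, Tbx18 and Uncx stood at 78.1%, 66.5% and 21.3% of their own highest part means.

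**Figure D4:**
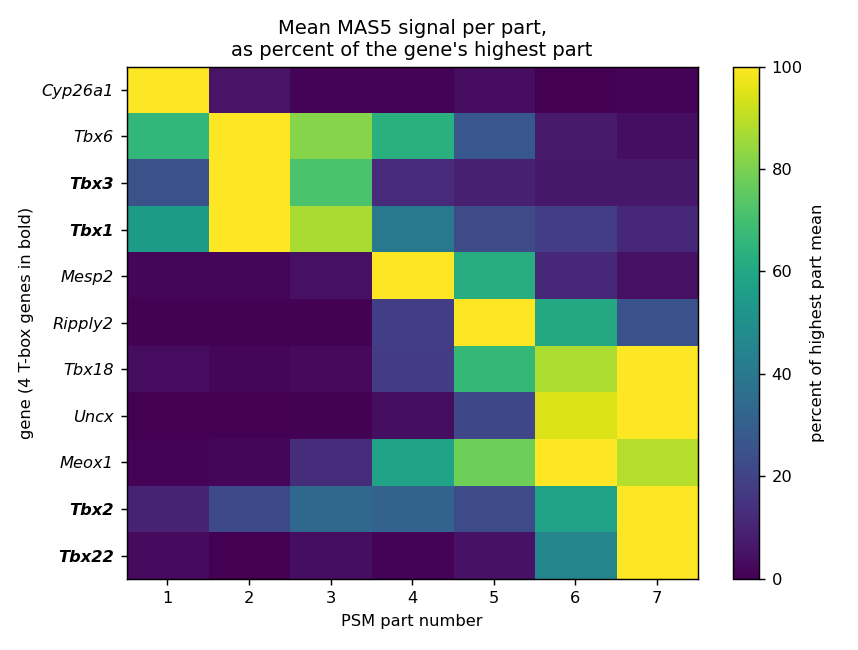
Mean linear MAS5 signal of 11 genes (rows, the 4 T-box genes in bold) in PSM parts 1 to 7 (columns), each as a percent of the highest part mean of that gene (colour). Tbx3 and Tbx1 are brightest in part 2 with Tbx6, and Tbx2 and Tbx22 in part 7 with Tbx18 and Uncx.

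Of the other T-box genes listed, 11 of 12 were on the array and 3 could be tested. Tbx6, which specifies paraxial mesoderm, fell by 0.69 ± 0.08 per part (SE; limma, adjusted p = 3.68e-07). Tbx18, which maintains the anterior compartment of each somite, rose by 0.74 ± 0.09 (SE; limma, adjusted p = 8.81e-07). Mga, a T-box factor that dimerises with Max, had a slope of -0.02 ± 0.02 (adjusted p = 0.503). On the log2 scale used here, the slopes of Tbx22 and Tbx3 were smaller in size than those of Tbx18 and Tbx6. This scale understates changes of low genes. The highest signals were 132.9 for Tbx22 and 152.4 for Tbx3, against 382 for Tbx18 and 1030 for Tbx6. Over the alternatives the slope ran from 0.17 to 0.86 for Tbx22 and from -0.55 to -0.12 for Tbx3. The order of sizes is therefore given for this scale only. The remaining 8 stayed below the filter: Tbx4 with a highest signal of 35.7 in part 2 replicate 3, Eomes with 17.3, and Tbx5, Tbx15, Tbx19, Tbx20, Tbx21 and Tbr1 with no array at the table median.

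Genes linked to these factors elsewhere were mixed in direction. The median slope of all genes tested was -0.00125. Of 16 tested BMP transducers and targets 6 fell, 1 rose and 9 did not pass, with a median slope of -0.07. Bambi, a decoy receptor of BMP signalling, fell by 0.31 ± 0.04 per part (SE; limma, adjusted p = 4.49e-06), and the homeobox genes Msx2 and Msx1 fell by 0.23 ± 0.04 and 0.19 ± 0.07 (SE; adjusted p = 0.000338 and 0.0439). Smad4, the common mediator, was the 1 called as rising, by 0.09 ± 0.03 (SE; adjusted p = 0.0219). The Id genes went both ways. Id2 and Id3 had positive slopes of 0.21 ± 0.09 and 0.09 ± 0.06 that were not called (SE; limma, adjusted p = 0.124 and 0.377). Id1 and Id4 fell by 0.14 ± 0.05 and 0.12 ± 0.04 (SE; limma, adjusted p = 0.0331 and 0.0332). The Id1 call was lost under 10 of 35 alternatives. The Bambi and Msx2 calls held under all 35 alternatives. The Msx1 call was lost under 19 of 34, among them no filter (0.0662) and quantile normalization (0.0512), and its slope was -0.10 without part 1 replicate 2 alone (0.133). The Smad4 call was lost under 3 of 35, among them without part 1 replicate 1 alone (0.0533). The count that fell ran from 2 to 7 over the alternatives, with 3 without part 1 replicate 1 or part 1 replicate 2, and 4 without part 1 replicate 3 or part 6 replicate 2.

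Of 13 tested genes placed around Tbx1 in mouse pharyngeal and head mesoderm, 4 rose, 4 fell and 5 did not pass, with a median slope of 0.01. Foxc2 and Foxc1, forkhead genes needed for somites, rose by 0.70 ± 0.09 and 0.31 ± 0.07 per part, Eya1 by 0.54 ± 0.09 and Msc by 0.37 ± 0.09. Gbx2 fell by 0.29 ± 0.07, the growth factor gene Fgf8 by 0.28 ± 0.04, Mef2c by 0.22 ± 0.04 and Prdm1 by 0.16 ± 0.05 (all SE; limma, adjusted p from 6.86e-06 to 0.0356). The Prdm1 call was lost under 10 of 34 alternatives, including no filter (0.0514) and without any 1 of part 2 replicate 3 (0.0627), part 6 replicate 2 (0.0661), part 6 replicate 3 (0.0575), part 7 replicate 1 (0.0586) or part 7 replicate 2 (0.0512). The Msc and Foxc1 calls were lost without replicate 2 (0.0603 and 0.0693), and the other 5 held throughout. Of 5 tested genes that Tbx2 or Tbx3 represses in the heart or in cultured cells, 2 rose, 2 fell and 1 did not pass, with a median slope of -0.04. Ndrg1 rose by 0.23 ± 0.07 and Mycn by 0.10 ± 0.03, while Cdkn1a, the cell cycle inhibitor p21, fell by 0.14 ± 0.03 and the gap junction gene Gja1 by 0.04 ± 0.01 (all SE; limma, adjusted p from 0.00202 to 0.0180). None of these calls held under every alternative. Ndrg1 lost its call without part 7 replicate 1 (0.0667) or part 7 replicate 3 (0.0630) alone and without replicate 1 (0.195) or replicate 3 (0.0795). Mycn lost it with the mean of probe sets (0.111), without part 1 replicate 2 alone (0.0520) and without replicate 2 (0.217). Cdkn1a lost it without replicate 2 (0.130), and Gja1 with the mean of probe sets (0.0656) or without replicate 1 (0.0548). These counts describe the lists beside the 19.2% of all genes tested that had a called slope.

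**Figure D5:**
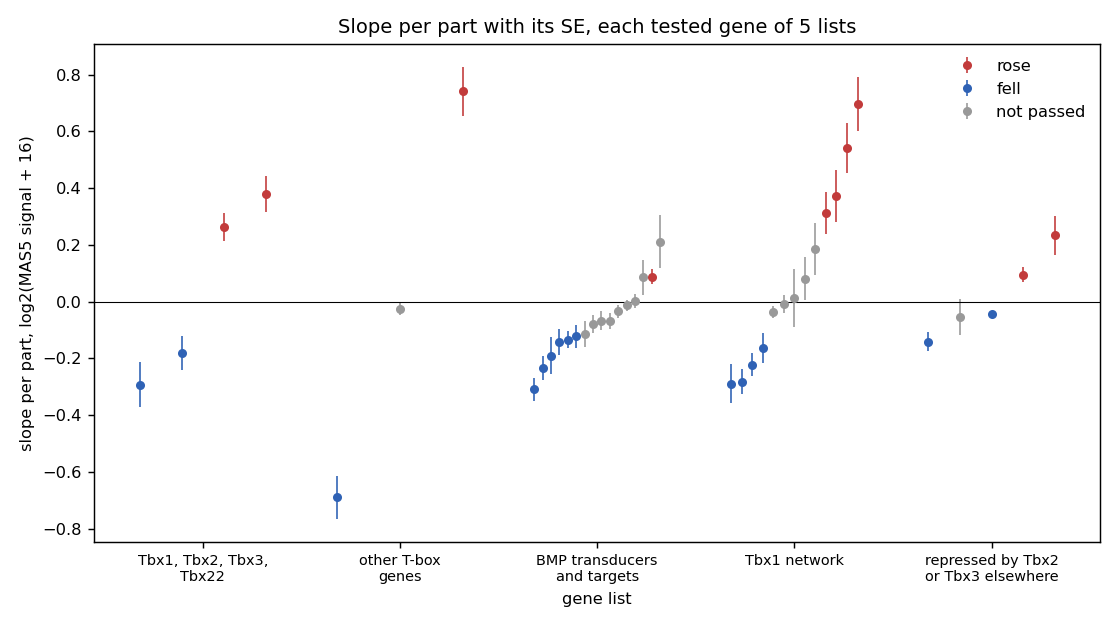
Slope per part in log2(MAS5 signal + 16) with its SE (vertical axis) for each tested gene of 5 lists (horizontal axis), coloured by call. The 4 T-box genes lie between -0.29 and 0.38, Tbx6 at -0.69 and Tbx18 at 0.74 lie outside them, and the other lists hold genes of both directions.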

How the data were processed

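Each array's values were deposited as linear signal intensity per probe set, which the submitters' processing notes attribute to MAS5. Neither its version nor its scaling target is given in the sources used here, and detection calls were left aside. Array means lay between 151 and 154 and medians between 12.9 and 13.7, so the scaling hides any change common to most genes, and MAS5 is noisy at low signal. No 2 arrays held identical values. Precision is limited by the number of arrays. Of 45101 probe sets, 64 were controls, 9160 had no symbol and 932 several. The remaining 34945 covered 18193 genes, named through RefSeq GRCm38.p6, which matched 34741 of them.

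The values were transformed here as log2(signal + 16), which understates changes of low genes. Genes at or above the table median of 13.3 in at least 3 arrays were tested, 12143 in all. With limma 3.58.1 (R 4.3.3, trended prior variance) the fits were a straight line on part number, and 7 part means for the F test, part 7 against part 1, the middle parts and neighbouring steps, two-sided, with Benjamini-Hochberg adjustment over all genes tested and a threshold of 0.05. The fits were tested on simulated data. The rule for naming took the 4 T-box genes, the other T-box genes listed, position landmarks and the 5 genes most like each T-box gene. It also took up to 4 called genes of each further list by size of slope. Not all landmarks and list genes under this rule are named in the text. Smad4, Id2, Id3, Id4, Gbx2, Fgf8 and Mef2c were named beyond that rule after their values were seen, as was the short motif. Members and lists were chosen with earlier results of these data known. Alternatives were pseudocounts of 1 and 64, other filters, normalizations, probe set rules and variance models, fewer groups, replicate blocks and left-out arrays.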

Additional observations from a re-analysis of the deposited data

How the results depend on the processing

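The calls of Tbx2 and Tbx22 for slope, and those between parts 7 and 1, held under every alternative in which they could be tested, with a highest adjusted p of 0.0145 (limma). A filter at the 75th percentile of the table left only Tbx3 of the 4 genes tested. Calls of Tbx1, Tbx3 and the Tbx22 step that were lost or gained stand beside their results, as does the Tbx22 middle contrast. The F test of Tbx2 was lost without replicate 1 (adjusted p = 0.0830). Over all genes, leaving out replicate numbers or single arrays gave 1374 to 2320 called slopes against 2328, 611 to 1725 F tests against 1633, 704 to 1712 calls of part 7 against part 1 against 1628, 107 to 433 calls of the middle parts against 354, and 47 to 309 calls over the neighbouring steps against 202. With the replicate number as a block these counts were 3030 F tests, 2860 calls of part 7 against part 1, 722 of the middle parts and 782 steps, and with a random replicate block 2723, 2647, 639 and 635. With only parts 1 and 7 in the fit 1076 genes were called, and with a pseudocount of 1 there were 127 step calls. The cause was not tested. The replicate block changed no call of the 4 T-box genes. Of 63 pairs of arrays with the same number, 55 had a correlation of deviations from their part means over 0.1 (0.0375 to 0.680, median 0.307), against a median of -0.234 over 126 pairs with different numbers, and 20 of 21 arrays correlated best with their own number. This hints that numbers group the arrays. The labels do not say so and not every pair passed 0.1, which is why the block is given as an alternative. Values near the floor, such as Tbx22 in parts 1 to 5, have no reliable order.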
